A study of Mus musculus with 5 samples.

Results

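The proliferin genes are a set of closely related members of the mouse prolactin family, here Prl2c1, Prl2c2, Prl2c3 and Prl2c5. They were followed across 5 RNA-seq libraries of mouse embryonic fibroblasts (MEFs), connective-tissue cells grown in culture from embryos. The members were the loci whose gene symbol was, or contained, 1 of the 4 names, and they were chosen by their scaled FPKM over these same 5 libraries, so their levels are given as a description with no test. The rule found 5 loci of 61082. Single-symbol loci carried Prl2c1 (XLOC_010190), Prl2c2 (XLOC_010593), Prl2c3 (XLOC_010078) and Prl2c5 (XLOC_010079), and the remaining locus (XLOC_010592) joined Prl2c3 with Prl2c4, a name that RefSeq lists as a synonym of Prl2c3. That locus is called the joined locus below. Summed values cover the 4 single-symbol loci unless the joined locus is named.

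All cells were C57BL/6 MEFs taken from E14.5 embryos and sequenced at passage 30. In 4 lines the cells came from Prep1 hypomorphic embryos, which make less of the TALE homeobox factor Prep1 (gene Pknox1): EV was infected with an empty vector, M overexpressed Meis1, P overexpressed Prep1 and MP overexpressed both. WT cells had the genotype Prep1 wild-type and no stated vector, although the growth protocol given for WT also names hypomorphic embryos. There was 1 library a group, so the differences below are between libraries, not conditions, and none could be checked against replicates. The sources used here do not give the promoter of the expression vectors or whether a line was clonal.

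Values were deposited by the authors as FPKM (fragments per kilobase of transcript, relative to all fragments mapped), a scale that takes out transcript length. The depth of the libraries is unknown. The deposited values differed by whole library: the upper quartile over 22338 single-gene loci was 429 FPKM in M and 157 in EV, but only 12.2 in WT, 11.6 in P and 9.63 in MP. Each library was therefore scaled so that this quartile was 10 scaled units. The deposited levels in M and EV are too high over this many loci for FPKM as defined above. Whether a single factor per library puts them on the scale of the other libraries was not tested. Of the single-gene loci, 2.41% were listed at 0 in EV and 9.33% in M, against 21.6% in WT, 23.9% in P and 26.7% in MP. The level of Meis1 followed the labels, with 16.8 in M and 15.4 in MP, against 12.4 in WT, 8.86 in P and 8.32 in EV. Pknox1 did not: it stood at 11.0 in WT, 0.554 in the library labelled P, 0.569 in the library labelled MP, 3.25 in M and 2.16 in EV. P and MP are therefore named below by their labels only.

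Proliferins are secreted glycoprotein hormones best known from the trophoblast giant cells of the placenta, where they promote the growth of new blood vessels. They carry mannose-6-phosphate and bind the mannose-6-phosphate receptor Igf2r. They were also found as transcripts of growing, serum-stimulated mouse fibroblast lines, and a proliferin promoter is a classic example of an element at which AP-1 (dimers of Fos and Jun proteins) and the glucocorticoid receptor act together.

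The near identity of the transcripts bears on every value below, because a short read from one copy can match another. In the GENCODE annotation of GRCm38 all 4 genes lie on chromosome 13 with 5 exons each. The deposited loci were built on mm9 and carry no coordinates, so annotated genes and loci are matched here by name alone. Prl2c3 lies at chr13:12790816-12800079 and Prl2c2 at chr13:12996125-13005383, both on the minus strand. Prl2c5 lies at chr13:13182715-13191923 on the plus strand. Prl2c1 lies apart from these, at chr13:27849342-27857788 on the plus strand, within 1 Mb of most of the other prolactin family genes. The transcripts of Prl2c2 and Prl2c3 differed at 4 of 842 aligned bases (99.5% identity), of which 3 fell in the coding sequence. Prl2c5 differed from Prl2c2 at 28 of 834 aligned bases (96.6% identity), and Prl2c1 differed from Prl2c2 at 61 of 837 (92.7% identity). A stretch of 60 coding bases across the junction of exons 3 and 4 shows what separates the copies. Each line reads 5′ to 3′ along the transcript, and capitals mark the bases that differ from Prl2c2.
Prl2c2: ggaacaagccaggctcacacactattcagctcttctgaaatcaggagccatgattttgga
Prl2c3: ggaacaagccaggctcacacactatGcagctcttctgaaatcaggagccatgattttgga
Prl2c5: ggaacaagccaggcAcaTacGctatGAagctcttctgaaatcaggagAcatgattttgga
Prl2c1: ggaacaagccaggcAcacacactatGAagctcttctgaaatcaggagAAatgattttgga
Counted from 1 at the 5′ end of the stretch, with the base of Prl2c2 first, Prl2c3 carries the single substitution T26G here. Prl2c5 carries 6 (T15A, C18T, A21G, T26G, C27A and C48A), and Prl2c1 carries 5 (T15A, T26G, C27A, C48A and C49A).

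Of all windows of 50 bases in the Prl2c2 transcript, 89.5% occurred letter for letter in another member. The share was 78.6% for Prl2c3, 33.6% for Prl2c5 and 28.0% for Prl2c1. At 100 bases the shares were 66.4% for Prl2c2, 62.3% for Prl2c3, 8.72% for Prl2c5 and 5.84% for Prl2c1. Read length and the handling of reads with several matches are not given in the sources used here. The split of signal between Prl2c2, Prl2c3 and the joined locus is therefore uncertain, and that of Prl2c5 and Prl2c1 less so. The effect of read assignment on the values was not tested.

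**Figure D1:**
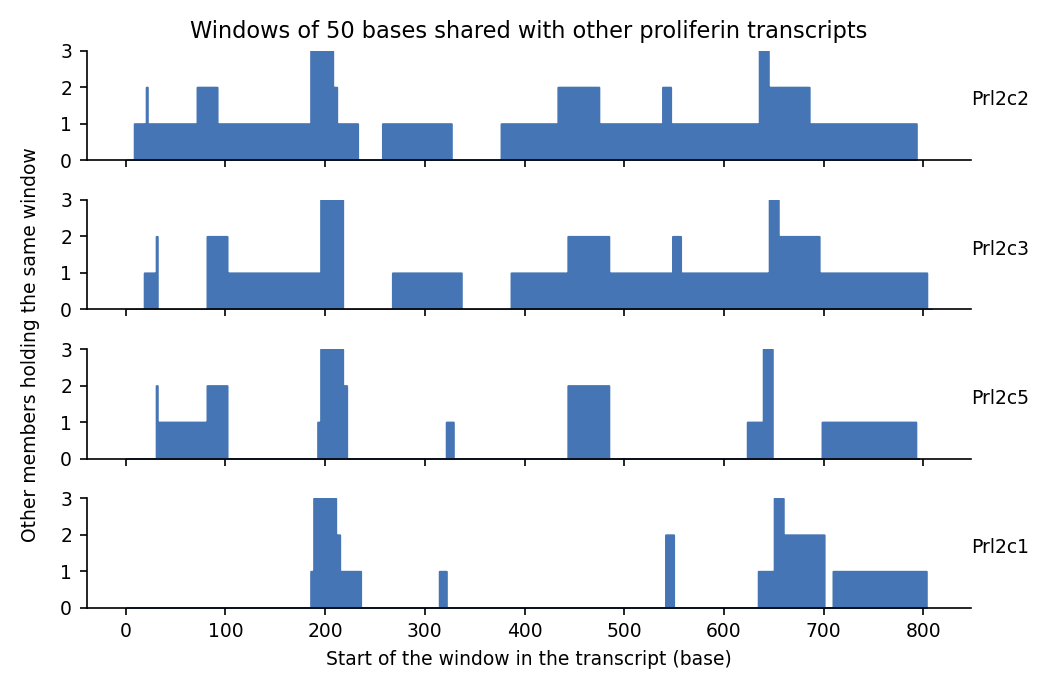
For each proliferin transcript, the number of other members (vertical axis, 0 to 3) that hold the 50-base window starting at each transcript base (horizontal axis). Most of the Prl2c2 and Prl2c3 transcripts is shared with at least 1 other member, whereas in Prl2c5 and Prl2c1 the shared windows are confined to a few blocks.

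Proliferin signal was highest in WT and lowest in EV. The sum of the 4 loci was 37.8 scaled units in WT, 25.1 in the library labelled P, 16.7 in the library labelled MP, 12.8 in M and 10.6 in EV. EV thus held 28.1% of the WT sum, M 33.8%, P 66.4% and MP 44.1%. With the joined locus added, the order was the same, from 14.3 in EV through 18.9 in M, 22.8 in MP and 32.4 in P to 46.3 in WT. In bulk RNA, fewer cells making a transcript and less transcript per cell cannot be told apart.

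Prl2c2 gave the most signal of the 4 single-symbol loci in every library. It stood at 20.9 scaled units in WT, 16.7 in the library labelled P, 11.7 in the library labelled MP, 5.77 in M and 4.78 in EV. EV and M were low and close together, and P, MP and WT all lay above both. The highest value was 4.37 times the lowest.

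The single-symbol Prl2c3 locus was ordered differently. It stood at 6.96 in WT, 2.33 in P, 2.25 in MP, 5.36 in M and 3.78 in EV. The annotated Prl2c3 transcript is nearly that of Prl2c2, but whether this locus or the joined locus holds that transcript is unknown. P and MP held the lowest levels of Prl2c3, while for Prl2c2 they lay above EV and M. The joined locus stood at 8.49 in WT, 7.27 in P, 6.11 in MP, 6.07 in M and 3.67 in EV, the narrowest range of the 5 loci (2.31-fold).

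Prl2c5, another proliferin copy, stood at 6.72 in WT, 4.11 in P, 2.24 in MP, 1.43 in M and 1.66 in EV. Prl2c1, the member that lies with the rest of the family, was the weakest locus, at 3.20 in WT, 1.97 in P, 0.450 in MP, 0.231 in M and 0.378 in EV. Its highest value was 13.8 times its lowest, the widest range of the 5 loci. That range is uncertain, because the levels of Prl2c1 in EV, M and MP were under 1 scaled unit. Prl2c5 and Prl2c1 were both highest in WT, second in P and lowest in M.

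**Figure D2:**
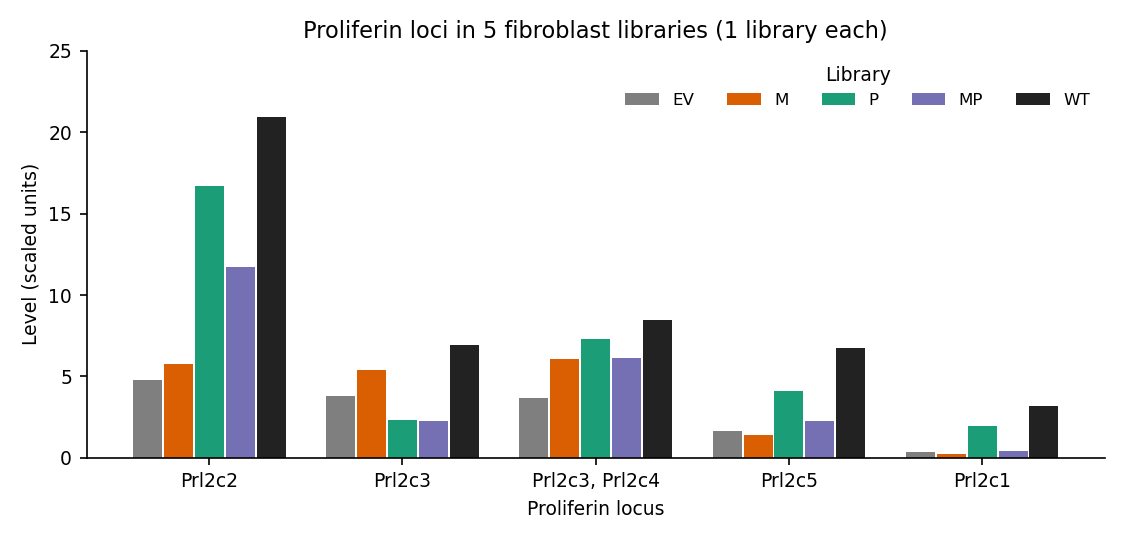
Level in scaled units (vertical axis, from 0) of each proliferin locus (horizontal axis) in the 5 libraries (bar colours, 1 library each, so no error bars). WT is the highest bar at all 5 loci (at 2 of them with libraries scaled to the median), and at Prl2c2 the bars of P (16.7) and MP (11.7) stand above EV (4.78) and M (5.77), while at Prl2c3 they stand below.

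WT was highest at all 5 loci in these units, but at only 2 (Prl2c5 and Prl2c1) when libraries were scaled to the median in place of the upper quartile. On that scale Prl2c2 was highest in P, Prl2c3 in M and the joined locus in MP, while the sum stayed highest in WT (208, against 180 in P, 157 in MP, 92.9 in M and 73.9 in EV). With that scaling the median log2 ratio of all genes kept, near 0 otherwise, was -0.68 in WT over EV, -0.30 in P over EV, 0.40 in MP over P, -0.40 in WT over P and -0.74 in WT over MP, so directions on it are read against these medians.

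Ratios between loci of the same library need no scaling, and they also set EV and M apart from P and MP. The Prl2c2 level was 1.26 times that of Prl2c3 in EV and 1.08 times in M, against 7.17 times in P, 5.21 times in MP and 3.01 times in WT. The joined locus over Prl2c3 gave 1.22 in WT, 3.12 in P, 2.72 in MP, 1.13 in M and 0.970 in EV. Prl2c2, Prl2c3 and the joined locus were thus at nearly equal values in EV and M, and Prl2c3 lay below the other 2 in P and MP. Prl2c5 was not close to Prl2c3 in the same libraries: Prl2c5 over Prl2c3 gave 0.966 in WT, 1.76 in P, 0.997 in MP, 0.266 in M and 0.439 in EV. All 3 ratios to Prl2c3 were lower in EV and M than in the other libraries. EV and M were also the libraries with high deposited levels and few loci at 0 (above), and the part of this in the ratios was not tested.

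As a share of the signal of all 5 loci, Prl2c2 held 45.2% in WT, 51.6% in P, 51.5% in MP, 30.6% in M and 33.5% in EV. Prl2c3 held 15.0% in WT, 7.19% in P, 9.88% in MP, 28.4% in M and 26.5% in EV. Prl2c1 held the smallest share in each library, from 1.23% in M to 6.91% in WT.

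The position of Prl2c2 among all genes moved further than its level did. Of 11867 gene symbols at 1 scaled unit or more in any library, 99.3% lay below Prl2c2 in WT, 96.8% in P, 63.1% in MP, 32.4% in M and 28.9% in EV. In WT its level of 20.9 was above the 99th percentile of 19.4. The values of a library spanned a narrow range, with the 95th percentile between 14.9 and 18.1 scaled units. Small differences in level were thus large differences in rank. In WT the median was 9.65, and the collagen gene Col1a1 (10.9), Vim (11.2) and Nr3c1 (11.2) lay close together. Why the range is this narrow was not tested, and ranks are not read as RNA abundance. Among the other loci the joined locus ranked highest (40.8% in WT). Prl2c3 ran from 18.0% in P to 32.2% in WT, and Prl2c1 from 2.07% in EV to 17.6% in WT.

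**Figure D3:**
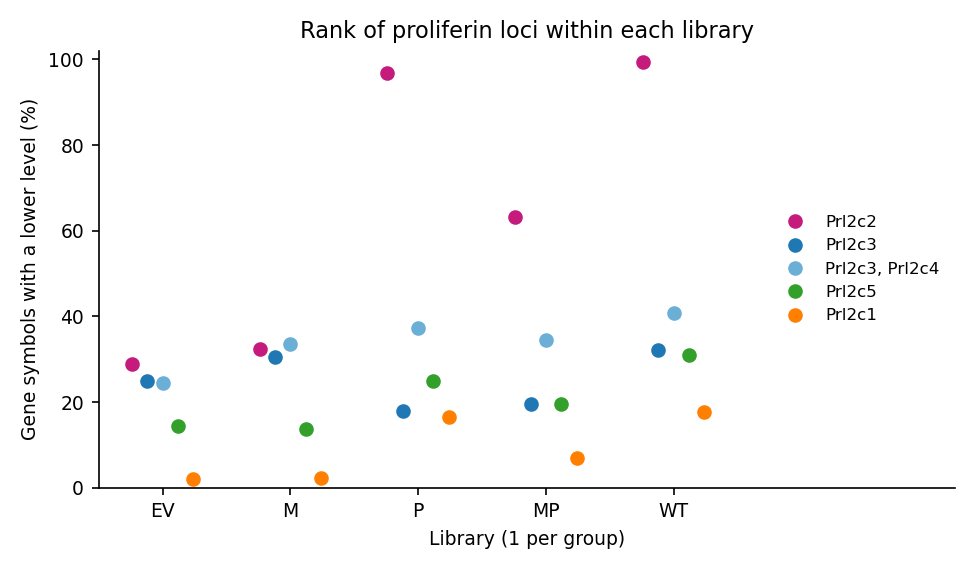
Percentage of 11867 gene symbols with a lower level (vertical axis) for each proliferin locus (colours) in each library (horizontal axis, 1 library per group, points set side by side). Prl2c2 lies at 28.9% in EV and 32.4% in M but at 96.8% in P and 99.3% in WT, while the other 4 loci stay in the lower part of every library.

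Differences between libraries are given as log2((level + 1)/(level + 1)) of scaled levels, a scale that understates differences of weak loci, and a gene at least 2-fold apart has a value of 1 or more in size. The first question was what the lines with added factors showed against EV. In M over EV the sum differed by 0.25. Prl2c2 differed by 0.23, Prl2c3 by 0.41, the joined locus by 0.60, Prl2c5 by -0.13 and Prl2c1 by -0.16. None of the 5 loci was 2-fold apart, beside 0.296% of all 11144 genes kept that were 2-fold higher and 0.628% that were 2-fold lower.

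In the library labelled P over EV the sum differed by 1.17. Prl2c2 (1.61) and Prl2c1 (1.11) were 2-fold higher, and Prl2c5 (0.94) and the joined locus (0.82) were just under that line. Prl2c3 lay the other way at -0.52. The count of 2 higher loci of 5 stands beside 0.654% of 11163 genes 2-fold higher and 1.85% 2-fold lower.

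In the library labelled MP over EV the sum differed by 0.61. Prl2c2 (1.14) was the 1 locus of 5 that was 2-fold higher, beside 0.208% of 11034 genes higher and 2.05% lower. The joined locus differed by 0.60, Prl2c5 by 0.28, Prl2c1 by 0.07 and Prl2c3 by -0.56. The single-symbol Prl2c3 locus was thus below its EV level in both libraries labelled as having added Prep1. The joined locus, which also carries the name Prl2c3, lay above its EV level in both. The split of signal between these loci is uncertain.

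In WT over EV the sum differed by 1.74 and all 5 loci lay above EV. Prl2c2 (1.92), Prl2c1 (1.61), Prl2c5 (1.54) and the joined locus (1.02) were 2-fold higher, and Prl2c3 differed by 0.73. This count of 4 stands beside 6.31% of 11657 genes 2-fold higher and 3.2% 2-fold lower, and it fell to 1 with a pseudocount of 5. WT differs from EV both in the Prep1 genotype and in the vector infection, and these cannot be told apart. The 4 comparisons share the EV library.

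**Figure D4:**
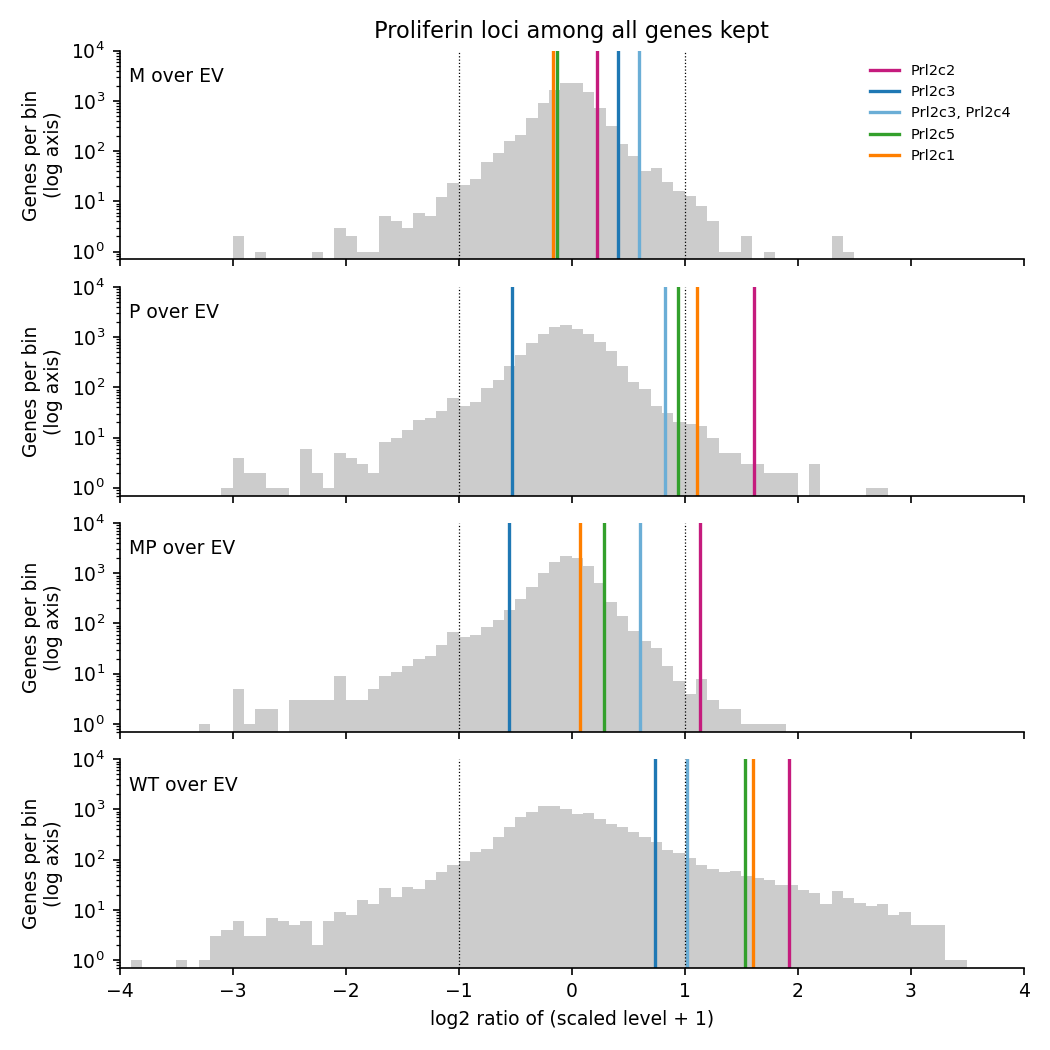
Number of genes per bin (vertical log axis) by log2 ratio over EV (horizontal axis, shown from -4 to 4) in grey, with the proliferin loci as coloured lines and the 2-fold limits dotted, 1 panel per library. The Prl2c2 line lies at 1.92 in WT, 1.61 in P, 1.14 in MP and 0.23 in M, and the Prl2c3 line lies below 0 in P and MP only.

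The library labelled MP was also set against those labelled M and P. In MP over M the sum differed by 0.36, with Prl2c2 at 0.91 and Prl2c3 at -0.97. The joined locus was level at 0.01, and Prl2c5 (0.42) and Prl2c1 (0.24) lay between. None of the 5 loci was 2-fold apart, beside 0.23% of 10855 genes higher and 1.28% lower. In MP over P the sum differed by -0.56, and Prl2c1 (-1.03) was 2-fold lower, beside 0.251% of 10771 genes higher and 0.761% lower. Prl2c5 differed by -0.66, Prl2c2 by -0.48, the joined locus by -0.22 and Prl2c3 by -0.03. With libraries scaled to the median, Prl2c3 (0.33) and the joined locus (0.14) lay above 0 in MP over P, though below the median gene (0.40).

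Further pairs without EV were added to the planned comparisons. In WT over the library labelled P, the sum differed by 0.57 (log2), and Prl2c3 (1.26) was the 1 locus of 5 that was 2-fold higher, beside 6.41% of 11404 genes higher and 1.91% lower. Prl2c5 differed by 0.60, Prl2c1 by 0.50, Prl2c2 by 0.31 and the joined locus by 0.20. With scaling to the median, Prl2c2 (-0.06) and the joined locus (-0.16) lay below 0 in this pair, though above the median gene (-0.40). In WT over the library labelled MP the sum differed by 1.14, and Prl2c2 differed by 0.79. The sum fell to 0.98 with a pseudocount of 5 and to 0.40 with scaling to the median. Prl2c1 (1.53), Prl2c3 (1.29) and Prl2c5 (1.25) were 2-fold higher in this pair, beside 8.5% of 11317 genes higher and 1.68% lower. With scaling to the median Prl2c3 (0.82) and Prl2c5 (0.78) were under the 2-fold line, and with a pseudocount of 5 all 3 were. The joined locus differed by 0.42 in that pair, and by -0.30 with scaling to the median, where the median gene stood at -0.74.

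In the library labelled P over M, Prl2c2 (1.39), Prl2c1 (1.27) and Prl2c5 (1.07) were 2-fold higher, beside 1.1% of 11028 genes higher and 1.65% lower, and of these Prl2c2 alone stayed 2-fold higher (1.01) with a pseudocount of 5. Prl2c3 differed by -0.94 in the same pair, the joined locus by 0.23 and the sum by 0.92.

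On the values as deposited the picture followed the whole-library shift. In FPKM, Prl2c2 was 75.3 in EV and 247 in M in the table of that pair, 83.2 in EV and 19.4 in P, 73.1 in EV and 11.3 in MP, and 84.3 in EV and 25.4 in WT. The median deposited log2 ratio to EV was -3.93 in WT, -3.96 in P and -4.01 in MP, against 1.39 in M, over loci at 5 FPKM or more in both libraries. The authors' deposited table gives Prl2c2 log2 ratios of 1.72, -2.10, -2.70 and -1.73 for M, P, MP and WT. Prl2c2 was thus above the median locus in all 4 tables on deposited ratios.

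In the authors' deposited table for M, Prl2c3 (q = 0.00175) and Prl2c2 (q = 0.0114) were called higher than EV. That table did not call the joined locus (q = 0.0546) or Prl2c5 (q = 0.223), and Prl2c1 was not tested. It called 4.39% of 22894 single-gene loci higher in M and 0.0131% lower. The authors' deposited tables called Prl2c2, Prl2c3, the joined locus and Prl2c5 lower than EV in P, MP and WT alike. Of all single-gene loci, 43.3% in P, 41.2% in MP and 44.6% in WT were called lower by the authors' deposited tables, and 0.00437%, 0.00437% and 0.048% higher, so these calls are not read further. Prl2c1 was not called in any of the authors' deposited tables.

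The rest of the prolactin family, 22 genes that include the placental lactogens and prolactin itself, was near 0. Their summed level was 5.69 scaled units in WT, 3.75 in P, 1.87 in MP, 2.65 in M and 7.57 in EV, so that the 4 proliferin loci held from 1.40 times (EV) to 8.92 times (MP) as much. No other family gene was listed at 0 in EV, against 14 in MP, 12 in WT, 9 in M and 7 in P. Over all single-gene loci the shares at 0 were 2.41% in EV, 26.7% in MP, 21.6% in WT, 9.33% in M and 23.9% in P. EV thus had the fewest loci at 0 there too. Only Prl3d2, Prl7a1 and Prl7a2 reached 1 scaled unit in any library. Prl3d2, a placental lactogen, stood between 0.631 in M and 1.25 in P. Prl7a1 reached 1.52 and Prl7a2 1.09, both in WT.

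**Figure D5:**
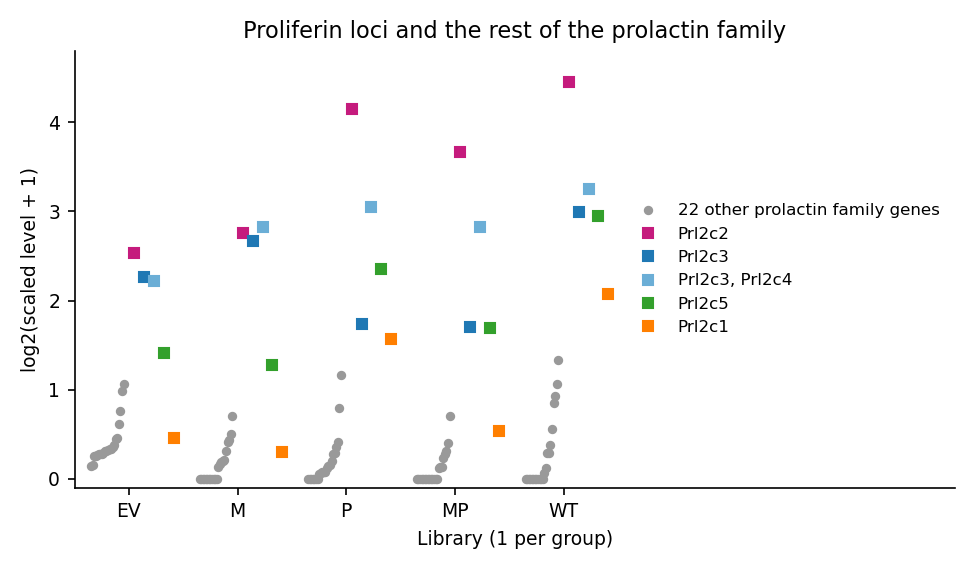
log2(scaled level + 1) (vertical axis) of 22 other prolactin family genes (grey points, in order of level) and of the 5 proliferin loci (coloured squares) in each library (horizontal axis, 1 per group). Prl2c1 lies among the grey points in EV, M and MP, and every other square lies above all grey points of its library.

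Promoter sequence was at hand for 2 of the 4 members, Prl2c3 and Prl2c5 (RefSeq, GRCm38.p6). The 250 bases before the annotated start are shown because an AP-1 element is a known feature of a proliferin promoter. Whether the heptamer marked below is that element was not tested. Prl2c3 is read from chr13:12800080-12800329 on the minus strand and Prl2c5 from chr13:13182466-13182715 on the plus strand. Capitals mark the heptamer of Prl2c3 that matched TGANTCA, where N is any base, and the same place in Prl2c5. In both it starts at position -209 from the annotated start.
Prl2c3: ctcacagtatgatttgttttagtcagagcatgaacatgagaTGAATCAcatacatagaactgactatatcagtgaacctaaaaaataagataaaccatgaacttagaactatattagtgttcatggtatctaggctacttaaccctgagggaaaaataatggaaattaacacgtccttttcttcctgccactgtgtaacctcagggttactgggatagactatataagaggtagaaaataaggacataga
Prl2c5: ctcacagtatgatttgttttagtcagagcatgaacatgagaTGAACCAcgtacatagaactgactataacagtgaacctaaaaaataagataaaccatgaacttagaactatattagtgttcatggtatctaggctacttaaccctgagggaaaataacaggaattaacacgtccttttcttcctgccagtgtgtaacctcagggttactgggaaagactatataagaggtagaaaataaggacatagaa
The windows differed at 8 of 249 aligned bases (96.8% identity), and the bases before position 46 of the window were the same in both. The AP-1 motif searched, TGANTCA on both strands, matched once in Prl2c3 and not in Prl2c5, where the heptamer carries T46C, counted from 1 at the 5′ end of the window with the Prl2c3 base first. Of 32817 RefSeq promoter windows of this length, 6.75% held the motif. The core of Meis and Prep sites, TGACAG, matched in neither window and in 15.9% of all windows. A TATA box, TATATAAG, matched at position -30 in Prl2c3 and -31 in Prl2c5, and in 0.935% of all windows. A match is a description of letters, not of binding.

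All listed genes for AP-1, the glucocorticoid receptor and its targets were at 1 scaled unit or more in every library. Of the 7 AP-1 subunits, 1 was 2-fold apart from EV in any library: Fosb stood at 2.41 in WT, 2.12 in P, 4.37 in MP, 3.20 in M and 5.74 in EV, a difference of -1.11 in P. Fos stood at 10.7 in WT, 6.30 in P, 10.1 in MP, 6.12 in M and 7.99 in EV. Fosl1 ranged from 4.45 in MP to 7.02 in P, and Fosl2 from 13.1 in M to 16.7 in MP. Among the Jun partners, Junb ranged from 15.2 in MP to 21.1 in EV, Jun from 11.2 in MP to 12.8 in EV and Jund from 5.93 in MP to 9.03 in WT. The median difference of the AP-1 list from EV was -0.06 in WT, -0.13 in P, -0.22 in MP and -0.33 in M, beside -0.07, -0.05, -0.04 and -0.01 over all genes kept. The glucocorticoid receptor gene Nr3c1 stood at 11.2 in WT, 12.6 in P, 15.0 in MP, 14.8 in M and 14.7 in EV, and 0 of 7 genes of the list of this receptor and its targets were 2-fold apart from EV.

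The list genes that were 2-fold apart from EV are to be read beside the shares over all genes given above, which in WT were 6.31% higher and 3.2% lower. On the receiving side, Igf2r was measured only in a locus joined with Airn, at 13.5 in WT, 15.0 in P, 15.6 in MP, 16.1 in M and 17.0 in EV. Of the 4 other genes for mannose-6-phosphate receptors and tagging enzymes, Nagpa, which uncovers the mannose-6-phosphate tag, was 2-fold higher in WT (5.23 in EV, 11.5 in WT). Prlr, the prolactin receptor, was near 0 outside EV, at 0.0839 in WT, 0.0539 in P, 0.0566 in MP, 0.399 in M and 1.20 in EV. Of the 8 genes of prolactin receptor signalling, Prlr was 2-fold lower than EV in P, MP and WT. It was kept in these pairs only through its EV level, so it could only be called lower, and nothing is read from that call. Socs1, an inhibitor of Jak kinases, was 2-fold higher in WT (3.98 in EV, 10.6 in WT). Of 8 angiogenic ligands kept of 10 listed, Angpt1 was 2-fold higher in WT (4.31 in EV, 10.7 in WT). Of 7 angiogenesis inhibitors, Col18a1, the collagen that contains endostatin, was 2-fold lower in WT (11.3 in EV, 4.55 in WT). None of the 6 proliferation markers with a locus of their own, of 8 listed, was 2-fold apart, with list medians of -0.48 in WT, -0.37 in P, -0.06 in MP and -0.13 in M.

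The cells carried the markers of fibroblasts, with 10 of 10 at 1 scaled unit or more in every library and sums from 121 in WT to 146 in EV. Of these, Pdgfra, a growth factor receptor of mesenchymal cells, stood at 11.8 in WT, 5.78 in P, 7.72 in MP, 6.54 in M and 2.56 in EV, 2-fold above EV in M, MP and WT. Col3a1, a fibrillar collagen, was 2-fold lower in WT (12.5 in EV, 5.46 in WT). Markers of endothelial cells and skeletal muscle stayed under 1 scaled unit in every library. Of the epithelial markers only Krt8 reached it (1.16 in P). Csf1r, a macrophage marker, ranged from 1.17 in WT to 3.71 in MP. The keratinocyte marker Krt10 ranged from 1.17 in MP to 2.23 in P. Sprr1a, also of that list, stood at 2.98 in WT, 2.09 in P, 0.978 in MP, 3.03 in M and 7.22 in EV, 2-fold below EV in each. Of 12 markers of trophoblast and placenta, Gcm1 reached 1 scaled unit in EV (1.17) and Eomes in WT (2.55), and no other did. The sum of these markers was 3.62 in WT, 0.740 in P, 0.598 in MP, 2.73 in M and 4.49 in EV, with 6, 6, 6, 3 and 0 of the 12 listed at 0 in the same order. P and MP held the lowest trophoblast sums and EV the highest, while WT, with the most proliferin signal, held the second highest. Eomes made up 2.55 of the 3.62 in WT. EV also held the highest sum of the endothelial (2.02), epithelial (3.33), keratinocyte (9.11) and skeletal muscle (0.948) markers. For macrophage and blood markers M did (4.18, against 3.14 in EV). The highest sum in EV was thus not particular to trophoblast markers. The part of trophoblast cells in the signal was not tested.

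Within 1 Mb of a member, 16 RefSeq genes outside the prolactin family had a deposited single-gene locus under their name or a synonym. Of these, 12 were kept. None was 2-fold apart from EV in M, P or MP, and 2610307P16Rik was 2-fold lower in WT (-1.01), counts from which nothing is read beside the shares over all genes. Their median difference from EV was -0.13 in WT, -0.05 in P, 0.02 in MP and 0.08 in M.

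The profiles nearest to that of Prl2c2 over the 5 libraries were found by the root mean square distance of centred log2(scaled level + 1) values among 9034 genes. Pcsk6, a proprotein convertase, was nearest (0.194), followed by Afap1l2 (0.208), Dbc1 (0.230), U90926 (0.232) and Smad6 (0.234), against a median distance of 0.799. Pcsk6 stood at 6.13 in WT, 7.42 in P, 4.79 in MP, 1.80 in M and 1.56 in EV. Nearest to the sum of the 4 loci were Smad6 (0.102), Ahr (0.125), S100a1 (0.152), Afap1l2 (0.158) and Gxylt2 (0.162), against a median of 0.682. Smad6, an inhibitor of BMP signalling, stood at 16.4 in WT, 9.05 in P, 7.39 in MP, 4.95 in M and 3.82 in EV. Likeness over 5 libraries is a description of these profiles.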

How the data were processed

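Illumina libraries were made from total RNA of 5 MEF cultures, per the labels' protocols. TopHat, Cufflinks and Cuffdiff were used with build mm9, per the submitters' processing notes. Their versions, the annotation and the normalisation are not given in the sources used here. The authors deposited 4 tables of FPKM, each with EV and 1 other library, and p-value and q-value columns from their own test of 1 library against 1, called significant at q under 0.05. The members, lists and rules were chosen with earlier results of these data known.

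Each library was scaled to an upper quartile of 10 over single-gene loci at 1 FPKM or more in any library. EV values came from the M table. The EV columns of the other tables differed from it by factors of 1.10 (P), 0.972 (MP) and 1.12 (WT). Genes were kept at 1 scaled unit or more in 1 of the 2 libraries compared, and ratios used a pseudocount of 1. Of a symbol with several loci, the one with the highest mean log2 level was used, and loci without a symbol or with several symbols stayed out of the background. Named genes were the members, list genes 2-fold apart from EV, Igf2r, Prlr, Nr3c1, the AP-1 subunits, family genes at 1 scaled unit or more, the 5 genes nearest each profile, and Meis1 and Pknox1. The files hold no coordinates, so neighbours came from RefSeq GRCm38.p6 gene order, in place of the coordinates planned. Transcripts and positions came from GENCODE vM21. Scripts used Python 3.11.15, pandas 2.3.3, numpy 2.4.6 and Biopython 1.88 and were tested on simulated data. Alternatives were other pseudocounts, filters and scalings, the values as deposited, the highest locus alone, the joined locus added and the EV column of each table.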

Additional observations from a re-analysis of the deposited data

Results flagged for a closer look

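The sum of the proliferin loci and 3 of the 5 loci differed in opposite directions between M and EV and between MP and P, the pairs whose labels differ by added Meis1. The sum of the 4 single-symbol loci differed by 0.25 in M over EV and by -0.56 in MP over P (log2). Prl2c2 differed by 0.23 and -0.48, Prl2c3 by 0.41 and -0.035, which is close to 0, and the joined locus by 0.60 and -0.22. The other loci lay the same way in both pairs, Prl2c5 at -0.13 and -0.66 and Prl2c1 at -0.16 and -1.03. Each direction rests on 1 library a side, and the difference between the pairs was not tested. With libraries scaled to the median, Prl2c3 (0.33) and the joined locus (0.14) lay above 0 in MP over P as well, so their directions were then no longer opposite, although both lay below the median of all genes kept in that pair (0.40).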

How the results depend on the processing

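On the values as deposited, which hold the shift of whole libraries, the log2 ratio of the summed proliferin signal was 1.71 in M over EV, and it reversed to -2.62 in P over EV, -3.26 in MP over EV, -2.001 in WT over EV and -4.97 in MP over M. Of the 5 loci, the number that changed sign on deposited values was 5 in WT, 4 in P, 4 in MP and 2 in M over EV, 4 in MP over M, 4 in P over M and 0 in MP over P. Those that had been 2-fold apart were Prl2c5 in WT (-1.72), Prl2c1 in P (-1.21) and WT (-0.65), the joined locus in WT (-2.54), and Prl2c2 in P (-2.05), MP (-2.59) and WT (-1.69) over EV, and Prl2c5 (-3.57), Prl2c1 (-1.86) and Prl2c2 (-3.75) in P over M. The number of the 5 loci highest in WT was 0 as deposited and 2 with scaling to the median. Under the other settings the sum kept its direction in all 6 pairs planned, and in the 3 pairs for which the EV column of the library's own table could be used. With a pseudocount of 5 the number of loci 2-fold higher was 1 in P (2 as reported), 0 in MP (1 as reported) and 1 in WT (4 as reported) over EV, 0 in WT over P (1 as reported), 0 in WT over MP (3 as reported) and 1 in P over M (3 as reported). Prl2c1 in MP over P was not 2-fold lower with that pseudocount (-0.35) or with the quartile over loci at 5 or more in every library (-0.93). With scaling to the median the number was 3 in WT and P and 2 in MP over EV, 1 in MP over M and 1 in WT over MP. With a pseudocount of 0.1, Prl2c2 (1.01) and Prl2c3 (-1.22) were 2-fold apart in MP over M and Prl2c3 (-1.17) in P over M, and with scaling to the median Prl2c3 in P over M was (-1.18). P over EV fell to 0.95 with a pseudocount of 5, under the 2-fold line, and MP over EV reached 1.08 with scaling to the median, over it. The count of list genes 2-fold apart from EV left out the cell type markers, the other prolactin family genes and the neighbours. It was 2 in M with a pseudocount of 0.1 (0 as reported). With genes kept at 5 scaled units or more it was 1 in P (2 as reported) and 0 in MP (1 as reported). Causes other than the deposited library shift were not tested. Adding to the lists the loci that join a list gene with other genes was a setting chosen after seeing the data. So was the quartile taken over loci at 5 scaled units or more in every library. No paired analysis was possible because each group held 1 library, and no replicate could be left out. Without counts, the depth behind a value is unknown, so no counting interval can be given, and levels under 1 scaled unit, such as Prl2c1 in EV, M and MP, are the least certain.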
